A study of Oreochromis niloticus with 18 samples.

Results

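The liver of juvenile tilapia (Oreochromis niloticus) was compared between 2 fish immersed for 12 h in 25 nM T2 (diiodothyronine) and 2 non-treated control fish. These 4 libraries were chosen by tissue and treatment alone and are 4 of the 18 RNA-seq libraries of the study. The others are 2 livers after 25 nM T3 (triiodothyronine) and 12 libraries of cerebellum and thalamus-pituitary, each a pool of 4 fish. Each liver library came from the whole liver of 1 fish, 4 months old by the labels and sexually undifferentiated by the study's methods. The hormone stocks were dissolved in NaOH, and whether the control water received the same solvent is not given in the sources used here. The labels name no strain and no genetic change. With 2 fish per group the p-values cover the spread between these fish only, and a change in the number of cells of a type cannot be told apart from a change in RNA per cell.

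Thyroid hormones act mainly through nuclear receptors that sit on DNA with the retinoid X receptors and exchange corepressors for coactivators when hormone binds. In the vertebrate liver they are known for raising mitochondrial metabolism and the turnover of lipids and cholesterol, and for acting together with growth hormone, insulin and bile acid signals. T2 is an outer-ring deiodination product of T3, and in tilapia it activates a long form of the thyroid hormone receptor beta.

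Each library gives an effective count for each of 26763 transcripts, the estimated read count corrected for transcript ends that cannot start a fragment. The rounded totals were 2090510 and 6403731 in the controls and 4508460 and 5022445 with T2, and 19398 transcripts had a count above 0 in at least 1 of the 4. Levels are given as CPM, the transcript's share of the library's counts after TMM scaling, in the order replicate 1 and replicate 2. A single count stood for 0.634 and 0.184 CPM in the controls and 0.169 and 0.171 CPM with T2. CPM values are not divided by transcript length, so a ranking or sum of levels over transcripts is one of counts, which length also affects. The 2 controls were less alike than the 2 T2 livers. Of tested transcripts 24.1% differed more than 2-fold between the controls and 10.2% between the T2 libraries. Control replicate 1 was the shallowest library, and the part of counting error in this contrast was not tested. The 100 transcripts with the highest control level took 56.1% and 51.8% of the counts in the controls and 40.2% and 42% with T2.

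In the liver 2290 of 10905 tested transcripts (21.0%) passed an adjusted p of 0.05 in edgeR's quasi-likelihood test, 1325 of them higher with T2 (12.2%) and 965 lower (8.85%). An unadjusted p under 0.05 was found for 4263. The median size of a called change was 1.95 on the log2 scale with a median standard error of 0.346, and the smallest was 0.929 in size. Changes over 3 on the log2 scale were seen for 286 transcripts that rose and 144 that fell. Among the 2727 tested transcripts with the highest level 526 rose and 458 fell, and among the 2726 with the lowest level 116 rose and 76 fell. In all 2290 the T2 libraries lay on one side of both controls, but so they did in 67.0% of all tested transcripts. For a called gene described below, such a separation therefore adds nothing to its call. An exact permutation test of a single transcript cannot give a two-sided p below 0.333 with 2 libraries against 2. Where the lower group held 1 to 3 counts in all, a ratio of summed counts is given with a 95% interval that covers counting error only.

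The balance of rises and falls depended on the scaling, and fewer transcripts were called when a group was left with 1 library. TMM placed the median log2 fold change of all tested transcripts at 0.005, while division by the library total alone placed it at 0.612 and gave 2576 transcripts higher and 339 lower with T2, 88.4% of calls higher against 57.9%. Without T2 replicate 1 the same test called 437 transcripts up and 182 down, and without T2 replicate 2 it called 598 and 287. In the 15 alternative fits together 355 rises and 102 falls were called in every one, and the genes described below include many of these. All changes below are relative to the TMM scale.

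**Figure D1:**
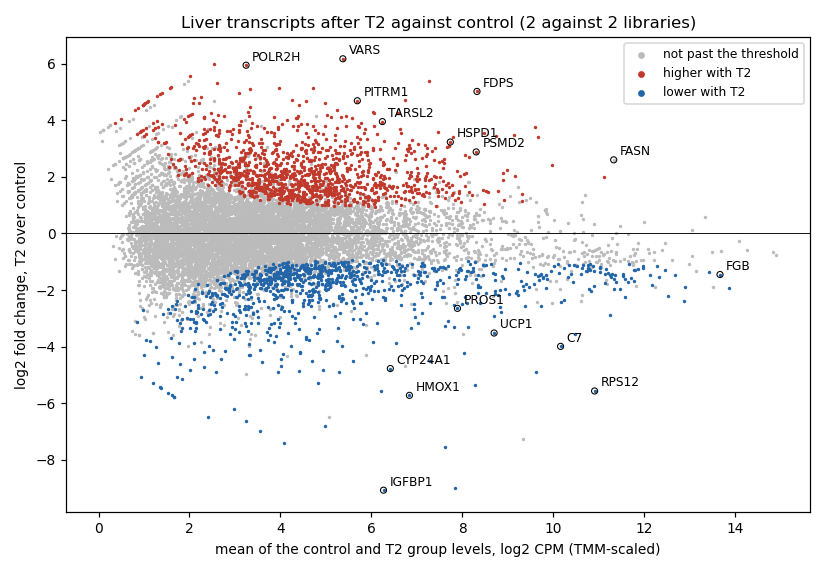
Log2 fold change of T2 over control liver (vertical axis) against the mean of the control and T2 group levels in log2 CPM (horizontal axis). Each point is a transcript, red where it was higher and blue where it was lower with T2 past an adjusted p of 0.05, and grey otherwise. Transcripts with a count of 0 in both libraries of a group are left out. Of the 1325 rises 45 and of the 965 falls 12 are left out for this reason. The calls drawn are more frequent at high than at low levels.

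Gene symbols were available for 1481 of the tested transcripts, from a part of the study's supplement that lists genes the authors had called on these same livers or on the brain. Of these 1108 (74.8%) were called, against 12.5% of the 9424 tested transcripts without a symbol. The 29 gene lists hold 481 tested transcripts and 15 with too few counts to test. For each list the count of called members therefore has to be read against 74.8%. The 1108 calls were 493 rises and 615 falls. A list's count of rises alone has to be read against 493 of 1481, and its count of falls alone against 615 of 1481. These counts are not independent evidence of the list's direction. Every called transcript had both T2 livers on one side of both controls. At least 74.8% of the tested transcripts with a symbol were therefore separated in this way. That share is only a floor, because transcripts that were not called can be separated too. In the pancreatic list all 12 tested transcripts were separated while 4 were called. In each of the 29 lists most tested members were separated. Counts of separated members given for the lists below therefore do not set a list apart from the others. They are not independent evidence of a list's direction either. The 91 tested transcripts whose symbol came from the brain clusters alone gave 14 calls (15.4%), 7 up and 7 down. Symbols follow the human gene names, and the roles given are those known from mammals or yeast.

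Transcripts for proteins that bring other proteins into mitochondria and fold them there rose together. All 26 tested members of this list rose, with a median log2 fold change of 2.34, and the summed level of the list went from 576.6 and 556.6 CPM in the controls to 2255 and 2409 CPM with T2. HSPD1 (ENSONIT00000017327), the mitochondrial chaperonin, measured 43.7 and 38.6 CPM in the controls, compared with 379 and 392.3 CPM in the T2 livers (log2 fold change 3.23, standard error 0.28, edgeR adjusted p = 0.0101). PITRM1 (ENSONIT00000018834), the peptidase that degrades cleaved presequences, measured 4.44 and 3.49 CPM without hormone against 105 and 93.5 CPM with T2 (log2 fold change 4.69, standard error 0.32, edgeR adjusted p = 0.0101). TOMM20 (ENSONIT00000012708), an import receptor of the outer membrane, measured 14.6 and 15.4 CPM in control and 126 and 108 CPM in T2 livers (log2 fold change 2.96, standard error 0.27, edgeR adjusted p = 0.0101). In each of these genes both T2 livers lay far above both controls. TIMM50 (ENSONIT00000001537) of the inner membrane translocase was not counted in either control and reached 8.81 and 9.21 CPM with T2, at least 7.35-fold higher when 3 counts are allowed in each control library. The channel protein TOMM40 was split over several transcripts, whose reads can be exchanged by the authors' counting, and one of them (ENSONIT00000017303) measured 2.53 and 2.02 CPM in the control livers against 37.5 and 41.4 CPM after T2 (log2 fold change 4.16, standard error 0.34, edgeR adjusted p = 0.0101). HSPA9 (ENSONIT00000005148), the chaperone of the import motor, measured 252 and 205 CPM in the controls, compared with 568 and 733 CPM in the T2 livers (log2 fold change 1.51, standard error 0.29, edgeR adjusted p = 0.0251, or 0.0809 without T2 replicate 1 and 0.138 without T2 replicate 2). The number of members called was 12 without T2 replicate 1 and 13 without T2 replicate 2, and 11 rose in every alternative fit.

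Genes of the mitochondrial ribosome that had a symbol moved in the same direction, with 23 of 26 tested members higher with T2 and none lower (median log2 fold change 1.94). MRPS27 (ENSONIT00000019195) of its small subunit measured 4.44 and 1.47 CPM without hormone against 64.4 and 55.6 CPM with T2 (log2 fold change 4.63, standard error 0.51, edgeR adjusted p = 0.0101). MRPL46 (ENSONIT00000003777) of the large subunit measured 7.60 and 4.59 CPM in control and 31.4 and 38.4 CPM in T2 livers (log2 fold change 2.60, standard error 0.36, edgeR adjusted p = 0.0144), and PTCD3 (ENSONIT00000020025), a mitochondrial translation factor bound to the small subunit, 10.1 and 7.53 CPM in the control livers against 48.3 and 36.3 CPM after T2 (log2 fold change 2.30, standard error 0.33, edgeR adjusted p = 0.0145). The T2 livers were above both controls in all 26 members, but most tested members of every list were separated in one direction or the other. MRPL41 (ENSONIT00000026621), at 10.8 and 14.9 CPM in the controls, compared with 23.2 and 22.2 CPM in the T2 livers, and MRPS14 (ENSONIT00000012472), at 9.50 and 10.8 CPM without hormone against 34.7 and 18.6 CPM with T2, did not pass the threshold (adjusted p = 0.11 and 0.0603 from edgeR). The count was 7 without T2 replicate 1 and 11 without T2 replicate 2. FASTKD5 (ENSONIT00000026004), which processes mitochondrial RNA, was among the 10 largest rises at 0 and 0.367 CPM in control and 13.1 and 10.9 CPM in T2 livers (42.1-fold higher from the summed counts, 95% counting interval 11.4 to 351, edgeR adjusted p = 0.0119).

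Enzymes that feed pyruvate into the citrate cycle or act in it also rose, 6 of 7 tested with a median log2 fold change of 1.54. PDHB (ENSONIT00000000528), a subunit of the first enzyme of the pyruvate dehydrogenase complex, measured 27.2 and 23.7 CPM in the control livers against 204 and 205 CPM after T2 (log2 fold change 3.01, standard error 0.27, edgeR adjusted p = 0.0101). DLAT (ENSONIT00000006236), its acetyltransferase, measured 17.7 and 26.3 CPM in the controls, compared with 113 and 148 CPM in the T2 livers (log2 fold change 2.54, standard error 0.33, edgeR adjusted p = 0.0127). IDH2 (ENSONIT00000003230), the mitochondrial isocitrate dehydrogenase, measured 8.87 and 16.2 CPM without hormone against 73.2 and 108 CPM with T2 (log2 fold change 2.79, standard error 0.40, edgeR adjusted p = 0.0144). Both controls were below both T2 livers in all of them. PDHX (ENSONIT00000018376), the component that tethers the complex's dehydrogenase of lipoamide, stood at 10.1 and 23.5 CPM in control and 41.7 and 40.1 CPM in T2 livers and was not called (edgeR adjusted p = 0.0863). Leaving out a T2 library lowered the count, to 3 without T2 replicate 1 and 3 without T2 replicate 2. ATP5A1 (ENSONIT00000019209), the alpha subunit of ATP synthase, rose as well and measured 378 and 418 CPM in the control livers against 873 and 871 CPM after T2 (log2 fold change 1.13, standard error 0.26, edgeR adjusted p = 0.0352, or 0.0569 without control replicate 1, 0.203 without T2 replicate 1 and 0.2 without T2 replicate 2).

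**Figure D2:**
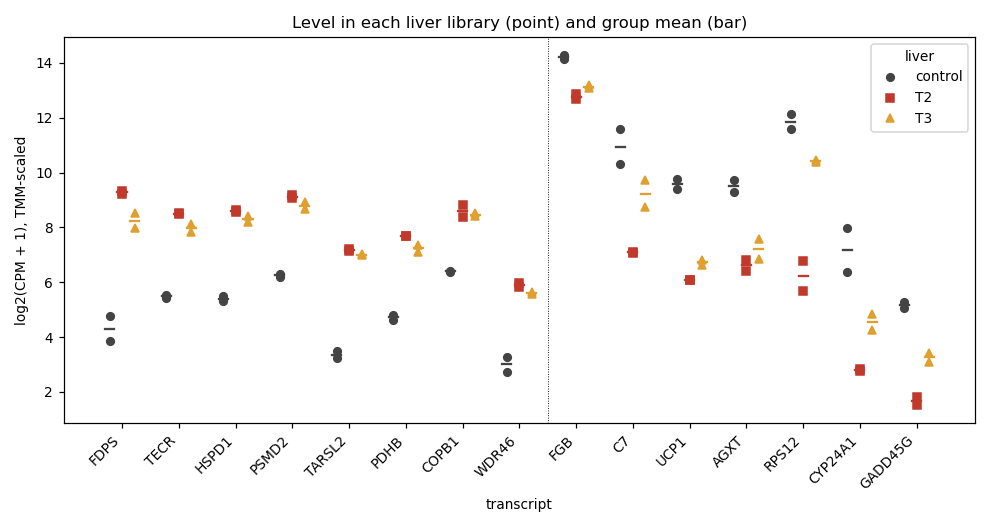
Level of 15 transcripts in each liver library as log2(CPM + 1), with controls as grey circles, T2 as red squares and T3 as orange triangles, and the group mean as a bar. The 8 genes on the left were higher with T2 and the 7 on the right lower, and in each of them both T2 points lie on one side of both control points.

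Genes for building ribosomes and genes for the ribosome's own proteins went opposite ways. Of 43 tested members of the ribosome biogenesis list 33 rose and 1 fell (median log2 fold change 1.77), while of 27 tested cytosolic ribosomal proteins 1 rose and 24 fell (median -1.45). TBL3 (ENSONIT00000002898), a subunit of the small-subunit processome, measured 0 and 2.02 CPM in the controls, compared with 57.8 and 45.2 CPM in the T2 livers (log2 fold change 5.13, standard error 0.65, edgeR adjusted p = 0.0119). WDR46 (ENSONIT00000021766), a nucleolar protein of the same machinery, measured 5.70 and 8.63 CPM without hormone against 55.4 and 62.3 CPM with T2 (log2 fold change 2.97, standard error 0.32, edgeR adjusted p = 0.0101), and EFL1 (ENSONIT00000004275), the GTPase that releases the anti-association factor from new large subunits, 1.90 and 3.49 CPM in control and 30.2 and 27.8 CPM in T2 livers (log2 fold change 3.28, standard error 0.37, edgeR adjusted p = 0.0108). T2 lay above both controls in 38 of the 43. The fall in this list was DDX21 (ENSONIT00000006915), a nucleolar helicase, at 471 and 325 CPM in the control livers against 174 and 144 CPM after T2 (log2 fold change -1.32, standard error 0.31, edgeR adjusted p = 0.0374, or 0.157 with library-total scaling, 0.0596 without control replicate 1, 0.168 without T2 replicate 1 and 0.219 without T2 replicate 2). NSA2 (ENSONIT00000014093), at 652 and 259.6 CPM in the controls, compared with 129 and 140.4 CPM in the T2 livers, and RSL24D1 (ENSONIT00000010479), at 226 and 96.8 CPM without hormone against 60.2 and 41.6 CPM with T2, were lower on average and not called (edgeR adjusted p = 0.0509 and 0.0568). The number of rises was 15 without T2 replicate 1 and 14 without T2 replicate 2.

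Among the ribosomal proteins RPS12 (ENSONIT00000000550) stood apart at 4453 and 3097 CPM in control and 50.5 and 108 CPM in T2 livers (log2 fold change -5.57, standard error 0.53, edgeR adjusted p = 0.0101). The other 23 falls had log2 fold changes between -2.50 and -1.25. RPL38 (ENSONIT00000010068) measured 125 and 56.9 CPM in the control livers against 11.2 and 21.8 CPM after T2 (log2 fold change -2.45, standard error 0.52, edgeR adjusted p = 0.0304, or 0.0628 without control replicate 1 and 0.0951 without T2 replicate 1) and RPLP2 (ENSONIT00000003740) 4519 and 2449.8 CPM in the controls, compared with 1037 and 1014 CPM in the T2 livers (log2 fold change -1.76, standard error 0.38, edgeR adjusted p = 0.0304, or 0.137 without T2 replicate 1 and 0.115 without T2 replicate 2). The member that rose, RPL7L1 (ENSONIT00000000338), acts in ribosome assembly and is held by both lists, and it measured 17.1 and 15.4 CPM without hormone against 59.5 and 60.2 CPM with T2 (log2 fold change 1.89, standard error 0.26, edgeR adjusted p = 0.014). As a share of all counts the ribosomal proteins took 6.20% and 4.39% in the controls against 2.85% and 2.86% after T2. The direction of the median held under library-total scaling, but fewer falls were called then and without single libraries, namely 7 with library-total scaling, 6 without control replicate 1, 1 without T2 replicate 1 and 6 without T2 replicate 2.

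Of 13 tested genes for making tRNAs and charging them with amino acids 9 rose and none fell. Their median log2 fold change was 2.51, or 2.01 with the genes at 0 in the controls set at their lower bound. VARS (ENSONIT00000016442), the valyl-tRNA synthetase, measured 0.634 and 1.29 CPM in control and 66.6 and 97.4 CPM in T2 livers (log2 fold change 6.18, standard error 0.45, edgeR adjusted p = 0.0101), the largest rise among genes with counts in both controls that the naming rule gives. MARS (ENSONIT00000006405), for methionine, measured 6.34 and 3.67 CPM in the control livers against 78.1 and 85.4 CPM after T2 (log2 fold change 4.14, standard error 0.36, edgeR adjusted p = 0.0101). TARSL2 (ENSONIT00000021433), for threonine, measured 10.1 and 8.45 CPM in the controls, compared with 138 and 146 CPM in the T2 livers (log2 fold change 3.96, standard error 0.29, edgeR adjusted p = 0.0101), and YARS (ENSONIT00000019392), for tyrosine, 11.4 and 8.63 CPM without hormone against 96.3 and 100.1 CPM with T2 (log2 fold change 3.33, standard error 0.29, edgeR adjusted p = 0.0101). The T2 livers were well apart from the controls in these 4. EPRS (ENSONIT00000003826), which charges glutamate and proline, was not counted in either control and reached 7.97 and 2.05 CPM with T2, at least 4.08-fold higher (1.67-fold from T2 replicate 2 alone). AARS (ENSONIT00000014090), for alanine, measured 119.8 and 84.5 CPM in control and 244 and 184 CPM in T2 livers and was not called, nor was the synthetase scaffold AIMP1 (ENSONIT00000022102) at 37.4 and 14.5 CPM in the control livers against 8.64 and 5.46 CPM after T2 (edgeR adjusted p = 0.0616 and 0.0638). The count of rises was 4 without T2 replicate 1 and 5 without T2 replicate 2. POLR2H (ENSONIT00000015745), a subunit shared by the nuclear RNA polymerases, was also among the 10 largest rises, at 0 and 0.367 CPM in the controls, compared with 21.02 and 16.5 CPM in the T2 livers (65.98-fold higher from the summed counts, 95% counting interval 18.1 to 548, edgeR adjusted p = 0.0101).

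Of the proteasome genes that had a symbol, 15 of 16 tested members rose, with a median log2 fold change of 1.97. The summed level of the list went from 736.9 and 702.6 CPM in the controls to 2695 and 2788 CPM with T2. Proteasome genes without a symbol were not seen by this list. PSMD2 (ENSONIT00000013551), a scaffold subunit of the regulatory particle, measured 78.6 and 72.7 CPM without hormone against 542 and 574 CPM with T2 (log2 fold change 2.88, standard error 0.27, edgeR adjusted p = 0.0101). PSMD8 (ENSONIT00000005118), a lid subunit, measured 8.24 and 9.73 CPM in control and 91.9 and 76.6 CPM in T2 livers (log2 fold change 3.20, standard error 0.29, edgeR adjusted p = 0.0101), and PSMG1 (ENSONIT00000021922), a chaperone of proteasome assembly, 4.44 and 3.31 CPM in the control livers against 42.2 and 44.7 CPM after T2 (log2 fold change 3.55, standard error 0.32, edgeR adjusted p = 0.0101). The partner of that chaperone, PSMG2 (ENSONIT00000003390), went the other way at 27.2 and 29.01 CPM in the controls, compared with 14.9 and 7.33 CPM in the T2 livers without passing the threshold (edgeR adjusted p = 0.0643). Without a T2 library fewer were called, 8 without T2 replicate 1 and 9 without T2 replicate 2, and 8 rose in every alternative fit.

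In the endoplasmic reticulum, where secreted proteins are folded, 16 of 30 tested members rose and 5 fell (median log2 fold change 1.24). The rises included folding and quality-control genes. HYOU1 (ENSONIT00000005998), a chaperone of the lumen, measured 19.01 and 28.6 CPM without hormone against 127 and 183 CPM with T2 (log2 fold change 2.67, standard error 0.35, edgeR adjusted p = 0.013). UGGT2 (ENSONIT00000010672), a sensor of misfolded glycoproteins, measured 1.90 and 2.20 CPM in control and 20.2 and 31.04 CPM in T2 livers (log2 fold change 3.58, standard error 0.42, edgeR adjusted p = 0.0112), and its relative UGGT1, which is split over several transcripts, was among the 10 largest rises in one of them (ENSONIT00000001567) at 1.90 and 0 CPM in the control livers against 11.4 and 20.8 CPM after T2 (37.6-fold higher from the summed counts, 95% counting interval 12.7 to 184, edgeR adjusted p = 0.034, or 0.0553 without control replicate 2 and 0.0645 without T2 replicate 2). DERL1 (ENSONIT00000009195), which passes misfolded proteins out for degradation, measured 31.7 and 32.7 CPM in the controls, compared with 107 and 137 CPM in the T2 livers (log2 fold change 1.92, standard error 0.27, edgeR adjusted p = 0.0145). Both T2 livers were above the controls in each of these.

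Members of the same list that fell include targets of the stress response. CHAC1 (ENSONIT00000015183), which breaks down glutathione and is induced by amino acid or folding stress, measured 19.01 and 4.41 CPM without hormone against 0.678 and 0 CPM with T2 (log2 fold change -4.90, standard error 1.23, edgeR adjusted p = 0.0437, or 0.172 without control replicate 1 and 0.0549 without T2 replicate 2). DDIT3 (ENSONIT00000006407), a transcription factor of the same response, measured 71.6 and 53.8 CPM in control and 16.6 and 18.8 CPM in T2 livers (log2 fold change -1.82, standard error 0.28, edgeR adjusted p = 0.0173, or 0.0925 without T2 replicate 1 and 0.0561 without T2 replicate 2), while its activator ATF4 (ENSONIT00000010761) stood at 95.7 and 77.7 CPM in the control livers against 186 and 152 CPM after T2 and was not called (edgeR adjusted p = 0.0574). SELK (ENSONIT00000002306), a selenoprotein of the membrane, measured 30.4 and 15.98 CPM in the controls, compared with 1.02 and 0.853 CPM in the T2 livers (log2 fold change -4.55, standard error 0.52, edgeR adjusted p = 0.0108), and HERPUD2 (ENSONIT00000008319) 45.6 and 38.6 CPM without hormone against 8.64 and 6.82 CPM with T2 (log2 fold change -2.43, standard error 0.29, edgeR adjusted p = 0.0118). PDIA2 (ENSONIT00000004209), a disulfide isomerase known from the pancreas, measured 137 and 64.3 CPM in control and 23.6 and 31.6 CPM in T2 livers (log2 fold change -1.85, standard error 0.43, edgeR adjusted p = 0.0365, or 0.0611 with library-total scaling, 0.0583 without control replicate 1, 0.148 without T2 replicate 1 and 0.0629 without T2 replicate 2). The controls were the higher group in all 5 that fell. Rises in the folding list numbered 7 without T2 replicate 1 and 7 without T2 replicate 2, and falls 3 without control replicate 1, 3 without T2 replicate 1 and 2 without T2 replicate 2.

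Vesicle coats that carry cargo between the endoplasmic reticulum and the Golgi rose in 14 of 17 tested members (median log2 fold change 1.81). COPB1 (ENSONIT00000007723) of the COPI coat measured 84.9 and 82.1 CPM in the control livers against 335 and 445 CPM after T2 (log2 fold change 2.22, standard error 0.29, edgeR adjusted p = 0.0129), and RER1 (ENSONIT00000002618), a retrieval receptor, 13.3 and 9.73 CPM in the controls, compared with 62.4 and 63.4 CPM in the T2 livers (log2 fold change 2.48, standard error 0.29, edgeR adjusted p = 0.0114). COPZ1 (ENSONIT00000015446) and SEC24C (ENSONIT00000019978) were also higher in both T2 livers, at 0 and 6.06 CPM without hormone against 23.1 and 20.98 CPM with T2 for the first and 0.634 and 5.33 CPM in control and 14.6 and 11.1 CPM in T2 livers for the second, without passing the threshold (edgeR adjusted p = 0.0787 and 0.104). The third member not called, LMAN2L (ENSONIT00000015067), a cargo receptor, went the other way, at 13.9 and 9.37 CPM in the control livers against 0 and 3.92 CPM after T2 (edgeR adjusted p = 0.173). Fewer rises were called with any 1 library left out, while the list median then lay between 1.63 and 1.91.

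**Figure D3:**
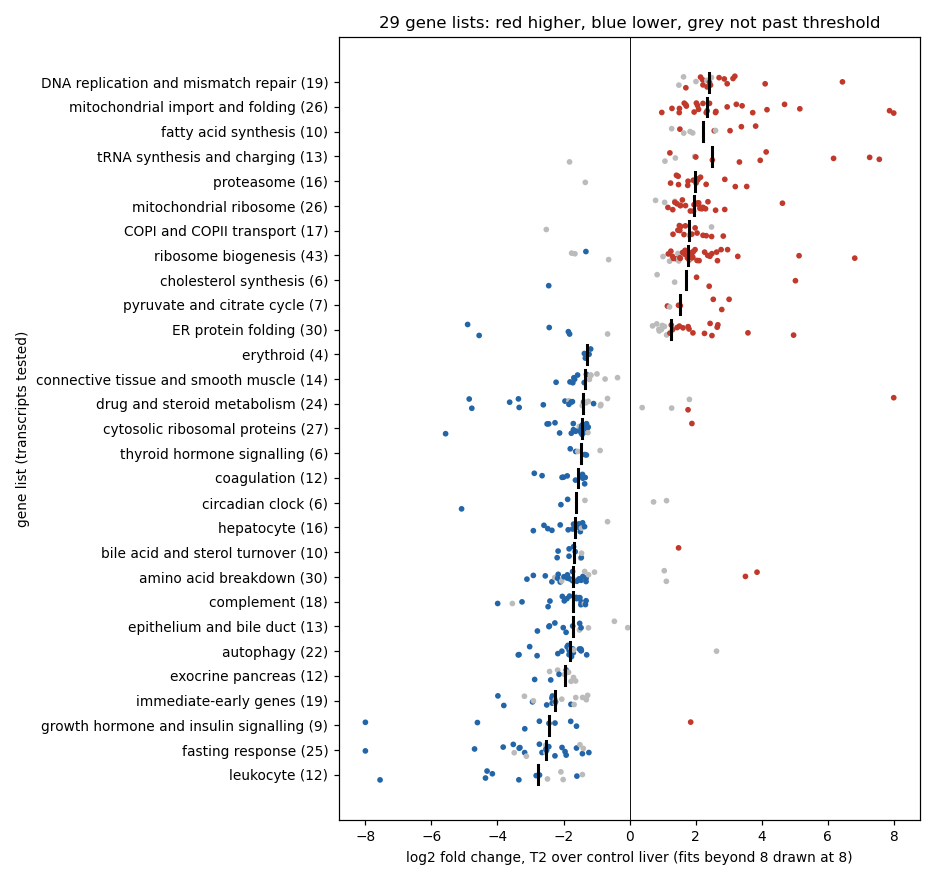
Log2 fold change of T2 over control for every tested member of 29 gene lists (horizontal axis, lists on the vertical axis with the number tested). Points are red where higher, blue where lower with T2 past the threshold and grey otherwise, and the black bar is the list median. Points of transcripts with a count of 0 in both libraries of a group are fitted values that depend on the prior count. The medians of the mitochondrial import, tRNA charging and proteasome lists lie to the right of 0 and those of the fasting, plasma protein and leukocyte lists to the left. Single members of the tRNA charging and proteasome lists lie to the left of 0.

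Genes of fatty acid synthesis were higher in both T2 livers than in both controls in all 10 tested members, of which 5 passed the threshold (median log2 fold change 2.24). AACS (ENSONIT00000021403), which makes acetoacetyl-CoA for lipid synthesis, measured 3.80 and 4.41 CPM in the controls against 59.5 CPM in both T2 livers (log2 fold change 3.82, standard error 0.30, edgeR adjusted p = 0.0101). TECR (ENSONIT00000020667), the last enzyme of fatty acid elongation, measured 41.8 and 45.9 CPM without hormone against 370.2 and 355 CPM with T2 (log2 fold change 3.04, standard error 0.28, edgeR adjusted p = 0.0101). AGPAT5 (ENSONIT00000012158), which makes phosphatidic acid, measured 8.24 and 6.43 CPM in control and 38.5 and 46.1 CPM in T2 livers (log2 fold change 2.56, standard error 0.31, edgeR adjusted p = 0.0118). The controls lay below the T2 livers in each. For FASN (ENSONIT00000009201), the fatty acid synthase, the spread was in the controls, at 217 and 1237 CPM, with 3176 and 5685 CPM after T2, and its change of 2.60 on the log2 scale (standard error 0.83) was not called (edgeR adjusted p = 0.075). The count of rises was 10 with edgeR's exact test, 9 with the exact test unfiltered, 8 with DESeq2, 9 with no filter on low counts, 10 with library-total scaling, 8 with all 6 livers in 1 fit, 8 without control replicate 2, 3 without T2 replicate 1 and 3 without T2 replicate 2. MFSD2A (ENSONIT00000015423), a carrier of lysophospholipids, was among the 10 largest rises at 0 and 0.735 CPM in the control livers against 10.5 and 28.8 CPM after T2 (log2 fold change 5.11, standard error 0.89, edgeR adjusted p = 0.0208, or 0.0519 without control replicate 2).

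In cholesterol synthesis 3 of 6 tested genes rose and 1 fell. FDPS (ENSONIT00000008001), the farnesyl diphosphate synthase, went from 25.98 and 13.4 CPM in the controls to 597 and 646 CPM with T2 (log2 fold change 5.02, standard error 0.43, edgeR adjusted p = 0.0101) and was among the largest rises. MVD (ENSONIT00000007128), which makes isopentenyl diphosphate, measured 34.2 and 26.4 CPM in the controls, compared with 143 and 177 CPM in the T2 livers (log2 fold change 2.41, standard error 0.30, edgeR adjusted p = 0.0119), and DHCR7 (ENSONIT00000004014), the enzyme that completes cholesterol, 128 and 67.4 CPM without hormone against 422 and 370.3 CPM with T2 (log2 fold change 2.03, standard error 0.39, edgeR adjusted p = 0.0244, or 0.0705 without T2 replicate 1). Both T2 livers exceeded both controls in the 3. MSMO1 (ENSONIT00000012736), at 544 and 760.2 CPM in control and 952 and 1377 CPM in T2 livers, and MVK (ENSONIT00000016971), at 19.6 and 43.9 CPM in the control livers against 95.3 and 73.00 CPM after T2, were not called (edgeR adjusted p = 0.123 and 0.0691). With library-total scaling 5 genes of the list were called higher.

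Genes that turn cholesterol into bile acids or export it were lower with T2, 7 of 10 tested called and 1 called higher (median log2 fold change -1.67). CYP7A1 (ENSONIT00000007922), the rate-limiting enzyme of bile acid synthesis, measured 81.1 and 149.7 CPM in the controls, compared with 35.1 and 36.5 CPM in the T2 livers (log2 fold change -1.70, standard error 0.36, edgeR adjusted p = 0.0302, or 0.0894 with library-total scaling, 0.132 without T2 replicate 1 and 0.0935 without T2 replicate 2). NR1H3 (ENSONIT00000007345), the sterol receptor LXR alpha, measured 26.6 and 54.4 CPM without hormone against 8.30 and 9.72 CPM with T2 (log2 fold change -2.19, standard error 0.41, edgeR adjusted p = 0.0237, or 0.088 without T2 replicate 1), and NR5A2 (ENSONIT00000015773), a nuclear receptor that drives bile acid genes, 65.3 and 78.04 CPM in control and 24.9 and 27.3 CPM in T2 livers (log2 fold change -1.46, standard error 0.26, edgeR adjusted p = 0.021, or 0.081 with library-total scaling, 0.144 without T2 replicate 1 and 0.0963 without T2 replicate 2). AMACR (ENSONIT00000009601), which prepares bile acid precursors for side chain cleavage, was the member that rose, at 12.7 and 22.04 CPM in the control livers against 45.4 and 54.9 CPM after T2 (log2 fold change 1.48, standard error 0.34, edgeR adjusted p = 0.0362, or 0.0602 without control replicate 1, 0.0915 without T2 replicate 1 and 0.132 without T2 replicate 2). CYP8B1 (ENSONIT00000026754), the sterol 12-hydroxylase, was not called at 830.0 and 1876 CPM in the controls, compared with 532 and 456 CPM in the T2 livers (edgeR adjusted p = 0.0659). None of the falls was called in every alternative fit, and their number was 1 with library-total scaling, 0 without T2 replicate 1 and 2 without T2 replicate 2.

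Genes listed here as a fasting response were lower with T2, and whether each responds to fasting in tilapia liver was not tested. Of 25 tested members 19 fell and none rose, the median log2 fold change was -2.54, and 10 fell in every alternative fit. The called share lay near the 74.8% of all tested transcripts with a symbol. PNPLA2 (ENSONIT00000019601), the lipase that starts fat mobilisation, measured 25.98 and 36.2 CPM without hormone against 1.53 and 0.853 CPM with T2 (log2 fold change -4.69, standard error 0.43, edgeR adjusted p = 0.0101). UCP1 (ENSONIT00000022002), a mitochondrial uncoupling protein that fish express in liver, measured 673 and 859 CPM in control and 66.3 and 67.2 CPM in T2 livers (log2 fold change -3.52, standard error 0.30, edgeR adjusted p = 0.0101). CROT (ENSONIT00000007728), which shuttles peroxisomal fatty acids, measured 106 and 146 CPM in the control livers against 10.8 and 17.1 CPM after T2 (log2 fold change -3.18, standard error 0.36, edgeR adjusted p = 0.0108), and PPARD (ENSONIT00000014956), a lipid-sensing nuclear receptor, 39.3 and 44.1 CPM in the controls, compared with 7.29 and 7.33 CPM in the T2 livers (log2 fold change -2.51, standard error 0.27, edgeR adjusted p = 0.0101). In each gene both T2 livers lay below both controls. ECI2 (ENSONIT00000021895), at 309.8 and 135 CPM without hormone against 46.8 and 121 CPM with T2, was not called (edgeR adjusted p = 0.142). The count was 12 without T2 replicate 1.

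Growth hormone and insulin signalling shared members with that list, and 8 of its 9 tested members fell. IGFBP1 (ENSONIT00000012152), which binds insulin-like growth factors and is repressed by insulin, had the naming rule's largest fall among genes with a symbol. It measured 253 and 55.1 CPM in control and 0 and 0.512 CPM in T2 livers (390.2-fold lower from the summed counts, 95% counting interval 133 to 1897, edgeR adjusted p = 0.0139). Its 2 controls were themselves far apart. GHR (ENSONIT00000016112), the growth hormone receptor, measured 5.70 and 7.71 CPM in the control livers against 0.339 and 0.171 CPM after T2 (28.5-fold lower from the summed counts, 95% counting interval 9.21 to 143, edgeR adjusted p = 0.0166). IRS2 (ENSONIT00000015081), an adaptor of the insulin receptor, measured 35.5 and 23.3 CPM in the controls, compared with 4.58 and 4.09 CPM in the T2 livers (log2 fold change -2.73, standard error 0.35, edgeR adjusted p = 0.0127), and INSR (ENSONIT00000023443), that receptor, 78.6 and 69.4 CPM without hormone against 25.6 and 22.9 CPM with T2 (log2 fold change -1.61, standard error 0.26, edgeR adjusted p = 0.0178, or 0.0505 with library-total scaling, 0.0909 without T2 replicate 1 and 0.0937 without T2 replicate 2). RPS6KB1 (ENSONIT00000006934), a kinase downstream of mTOR, was the member that rose, at 6.97 and 11.8 CPM in control and 31.02 and 39.9 CPM in T2 livers (log2 fold change 1.85, standard error 0.35, edgeR adjusted p = 0.0245, or 0.0529 without T2 replicate 1 and 0.0792 without T2 replicate 2). Falls numbered 4 with library-total scaling, 3 without T2 replicate 1 and 5 without T2 replicate 2.

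Autophagy genes fell in 19 of 22 tested members (median log2 fold change -1.80). MAP1LC3B (ENSONIT00000013984), the protein coupled to the autophagosome membrane, measured 12.04 and 11.4 CPM in the control livers against 1.53 and 0.682 CPM after T2 (log2 fold change -3.37, standard error 0.52, edgeR adjusted p = 0.0171). CCPG1 (ENSONIT00000007246), a receptor for autophagy of the endoplasmic reticulum, measured 75.4 and 65.6 CPM in the controls, compared with 6.95 and 6.82 CPM in the T2 livers (log2 fold change -3.35, standard error 0.28, edgeR adjusted p = 0.0101), and ATG2A (ENSONIT00000006746), a lipid transfer protein of the growing membrane, 69.7 and 123.03 CPM without hormone against 12.4 and 11.4 CPM with T2 (log2 fold change -3.02, standard error 0.37, edgeR adjusted p = 0.0118). The controls were higher than both T2 livers in these 3, which fell in every alternative fit. SQSTM1 (ENSONIT00000000125), the autophagy receptor p62, was the member with the opposite sign. It measured 0.634 and 0.735 CPM in control and 2.71 and 6.31 CPM in T2 livers. The main test did not call it (edgeR adjusted p = 0.0648), while edgeR's exact test with the same filter and library-total scaling did. The paper reports a rise of SQSTM1 in liver with T2, also by quantitative PCR in separate fish. The number of falls was 10 with library-total scaling, 3 without T2 replicate 1 and 7 without T2 replicate 2.

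Coagulation factors fell in all 12 tested members, with log2 fold changes between -2.89 and -1.34. The list summed to 53661 and 46952 CPM in the control livers against 15532 and 17858 CPM after T2. FGB (ENSONIT00000017746), the fibrinogen beta chain, measured 20076 and 18138 CPM in the control livers against 6562 and 7407 CPM after T2 (log2 fold change -1.45, standard error 0.28, edgeR adjusted p = 0.0252, or 0.187 without T2 replicate 1 and 0.125 without T2 replicate 2), and FGG (ENSONIT00000012818), the gamma chain, 9667 and 9763 CPM in the controls, compared with 3096 and 3879 CPM in the T2 livers (log2 fold change -1.48, standard error 0.29, edgeR adjusted p = 0.0251, or 0.198 without T2 replicate 1 and 0.105 without T2 replicate 2). PROS1 (ENSONIT00000003957), the anticoagulant protein S, measured 456 and 366 CPM without hormone against 61.5 and 69.2 CPM with T2 (log2 fold change -2.65, standard error 0.29, edgeR adjusted p = 0.0101) and was the member called in every alternative fit. Both T2 livers lay below both controls in all 12. The count was 7 with library-total scaling, 1 without T2 replicate 1 and 3 without T2 replicate 2.

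Complement genes were lower too, 16 of 18 tested with a median log2 fold change of -1.72. C7 (ENSONIT00000016103), a component of the membrane attack complex, measured 3046 and 1271 CPM in control and 134 and 137 CPM in T2 livers (log2 fold change -3.99, standard error 0.50, edgeR adjusted p = 0.0119). CFP (ENSONIT00000011654), properdin, measured 671 and 475 CPM in the control livers against 101 and 107 CPM after T2 (log2 fold change -2.47, standard error 0.31, edgeR adjusted p = 0.0119, or 0.0517 without T2 replicate 1), and C5 (ENSONIT00000000817), the precursor of the terminal pathway, 2779.7 and 2888 CPM in the controls, compared with 687 and 754 CPM in the T2 livers (log2 fold change -1.98, standard error 0.27, edgeR adjusted p = 0.0139, or 0.0893 without T2 replicate 1 and 0.0593 without T2 replicate 2). C1QC (ENSONIT00000005529), made mainly by macrophages, was not called, and its controls were far apart at 16.5 and 3.49 CPM, with 0.169 and 1.36 CPM after T2 (edgeR adjusted p = 0.0736). The falls numbered 8 with library-total scaling, 2 without T2 replicate 1 and 4 without T2 replicate 2.

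Amino acid breakdown fell in 20 of 30 tested members and rose in 2 (median log2 fold change -1.70). AGXT (ENSONIT00000012408), which converts glyoxylate to glycine, measured 623 and 855 CPM without hormone against 84.6 and 112 CPM with T2 (log2 fold change -2.91, standard error 0.33, edgeR adjusted p = 0.0108). TDO2 (ENSONIT00000001454), the first enzyme of tryptophan breakdown, measured 698 and 1188 CPM in control and 238 and 202 CPM in T2 livers (log2 fold change -2.10, standard error 0.36, edgeR adjusted p = 0.0203, or 0.0757 without T2 replicate 1 and 0.0761 without T2 replicate 2), and CBSL (ENSONIT00000002372), a cystathionine synthase, 959 and 1958 CPM in the control livers against 255 and 242 CPM after T2 (log2 fold change -2.55, standard error 0.42, edgeR adjusted p = 0.0187, or 0.0627 without T2 replicate 1). BHMT, which remethylates homocysteine, is split over 4 transcripts, and the one with the largest fall (ENSONIT00000018202) measured 283 and 455 CPM in the controls, compared with 29.2 and 56.5 CPM in the T2 livers (log2 fold change -3.11, standard error 0.46, edgeR adjusted p = 0.0154). Another BHMT transcript (ENSONIT00000018204) was not called in the main test, though edgeR's exact test called it. Its log2 fold change ranged from -2.33 to -1.06 over the alternative fits. The 2 rises were ASS1 (ENSONIT00000003580), a urea cycle enzyme that makes argininosuccinate, at 4.44 and 2.39 CPM without hormone against 51.2 and 38.4 CPM with T2 (log2 fold change 3.86, standard error 0.41, edgeR adjusted p = 0.0101), and GCDH (ENSONIT00000023824) of lysine breakdown, at 0.634 and 1.47 CPM in control and 9.32 and 19.1 CPM in T2 livers (log2 fold change 3.51, standard error 0.62, edgeR adjusted p = 0.0209, or 0.0748 without T2 replicate 2). T2 livers were below the controls in 26 of the 30. The falls came to 8 with library-total scaling, 3 without T2 replicate 1 and 5 without T2 replicate 2, and the rises to 4 with no filter on low counts, 4 with library-total scaling, 4 with all 6 livers in 1 fit and 1 without T2 replicate 2.

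The naming rule also gave 3 metabolic enzymes that rose and belong to none of the lists. MAT2A (ENSONIT00000016773), which makes S-adenosylmethionine, measured 89.97 and 112 CPM in the control livers against 355 and 534 CPM after T2 (log2 fold change 2.13, standard error 0.33, edgeR adjusted p = 0.0171). MTHFD1 (ENSONIT00000015369), a folate enzyme, measured 124 and 178 CPM in the controls, compared with 365 and 463 CPM in the T2 livers (log2 fold change 1.45, standard error 0.32, edgeR adjusted p = 0.032, or 0.0596 without control replicate 1, 0.0946 without T2 replicate 1 and 0.156 without T2 replicate 2), and PYGL (ENSONIT00000000679), the liver glycogen phosphorylase, 286 and 409 CPM without hormone against 815 and 1019.9 CPM with T2 (log2 fold change 1.40, standard error 0.32, edgeR adjusted p = 0.034, or 0.063 without control replicate 1, 0.108 without T2 replicate 1 and 0.175 without T2 replicate 2). Only MAT2A kept its call with each library left out.

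The hepatocyte marker list gave 14 falls among 16 tested members and no rise (median log2 fold change -1.66), with shares of all counts of 5.70% and 6.44% in the controls and 4.31% and 4.67% with T2. APOF (ENSONIT00000026497), an apolipoprotein, measured 979.6 and 579 CPM in control and 135 and 124 CPM in T2 livers (log2 fold change -2.59, standard error 0.36, edgeR adjusted p = 0.0141). LECT2 (ENSONIT00000024088), a secreted hepatocyte protein, measured 7939 and 7324 CPM in the control livers against 2306 and 3009 CPM after T2 (log2 fold change -1.52, standard error 0.29, edgeR adjusted p = 0.0249, or 0.194 without T2 replicate 1 and 0.0935 without T2 replicate 2), and HPX (ENSONIT00000021554), the heme carrier hemopexin, 12400.4 and 19287 CPM in the controls, compared with 5114 and 7204 CPM in the T2 livers (log2 fold change -1.36, standard error 0.36, edgeR adjusted p = 0.0497, or 0.0528 with the exact test unfiltered, 0.0566 with no filter on low counts, 0.126 with library-total scaling, 0.0905 without control replicate 2, 0.281 without T2 replicate 1 and 0.122 without T2 replicate 2). FETUB (ENSONIT00000013832) was not called at 37557 and 33954 CPM without hormone against 20589.9 and 24462 CPM with T2 (edgeR adjusted p = 0.149). The falls counted were 7 with library-total scaling, 4 without T2 replicate 1 and 3 without T2 replicate 2.

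Drug and steroid metabolism was mixed, with 12 of 24 tested members lower and 2 higher. CYP26A1 (ENSONIT00000009134), which degrades retinoic acid, measured 58.3 and 24.1 CPM in control and 1.86 and 0.853 CPM in T2 livers (log2 fold change -4.86, standard error 0.64, edgeR adjusted p = 0.0129). CYP24A1 (ENSONIT00000008700), which degrades vitamin D, measured 249 and 81.2 CPM in the control livers against 5.76 and 6.14 CPM after T2 (log2 fold change -4.78, standard error 0.63, edgeR adjusted p = 0.0129), and XDH (ENSONIT00000011349), the xanthine dehydrogenase, 143 and 283 CPM in the controls, compared with 20.8 and 21.1 CPM in the T2 livers (log2 fold change -3.34, standard error 0.41, edgeR adjusted p = 0.0119). SULT2B1 (ENSONIT00000024671), a sulfotransferase for sterols, was not counted in either control and reached 16.9 and 12.6 CPM with T2, at least 12.1-fold higher (edgeR adjusted p = 0.0119). CYP1A2 (ENSONIT00000003676), which oxidises many drugs and steroids, was not called at 298 and 544 CPM without hormone against 194 and 119 CPM with T2 (edgeR adjusted p = 0.0615). The falls were 5 with library-total scaling, 5 without T2 replicate 1 and 5 without T2 replicate 2, and the rises 4 with edgeR's exact test, 4 without control replicate 2, 1 without T2 replicate 1 and 1 without T2 replicate 2.

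Of 6 tested genes of thyroid hormone signalling 4 fell, all by less than 2 on the log2 scale. RXRB (ENSONIT00000003599), a partner of the hormone receptors, measured 46.3 and 43.2 CPM in control and 19.7 and 16.4 CPM in T2 livers (log2 fold change -1.31, standard error 0.26, edgeR adjusted p = 0.0268, or 0.0511 with the exact test unfiltered, 0.148 with library-total scaling, 0.135 without T2 replicate 1 and 0.182 without T2 replicate 2), and NCOR1 (ENSONIT00000016158), a corepressor of unliganded receptors, 37.4 and 67.02 CPM in the control livers against 15.6 and 14.8 CPM after T2 (log2 fold change -1.80, standard error 0.35, edgeR adjusted p = 0.026, or 0.0733 with library-total scaling, 0.102 without T2 replicate 1 and 0.0886 without T2 replicate 2). CRYM (ENSONIT00000025004), a cytosolic binding protein of thyroid hormone, stood at 18.4 and 11.2 CPM in the controls, compared with 13.4 and 2.05 CPM in the T2 livers and was not called (edgeR adjusted p = 0.469). The calls of this list numbered 0 with library-total scaling, 2 without control replicate 2, 0 without T2 replicate 1 and 0 without T2 replicate 2. The hormone receptors and the deiodinases had no symbol in the pairs used and were not analysed here.

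Immediate-early genes, which respond within minutes to handling and growth signals, fell in 9 of 19 tested members and rose in none (median log2 fold change -2.25). GADD45G (ENSONIT00000019143), a stress sensor, measured 32.3 and 38.2 CPM without hormone against 1.86 and 2.56 CPM with T2 (log2 fold change -3.99, standard error 0.34, edgeR adjusted p = 0.0101). ZFP36 (ENSONIT00000006297), which destabilises inflammatory mRNAs, measured 33.6 and 29.9 CPM in control and 5.93 and 6.48 CPM in T2 livers (log2 fold change -2.34, standard error 0.28, edgeR adjusted p = 0.0118). JUN (ENSONIT00000026582) was not called at 60.8 and 47.2 CPM in the control livers against 28.3 and 15.01 CPM after T2 (edgeR adjusted p = 0.0609). The count was 16 with edgeR's exact test, 15 with the exact test unfiltered, 14 with DESeq2, 15 with no filter on low counts and 3 without T2 replicate 1. Among 6 tested clock genes 3 fell, or 0 without T2 replicate 1. They included BHLHE40 (ENSONIT00000024125), a clock repressor, at 63.99 and 71.2 CPM in the controls, compared with 17.3 and 19.6 CPM in the T2 livers (log2 fold change -1.88, standard error 0.26, edgeR adjusted p = 0.0141, or 0.0801 without T2 replicate 1), and NPAS2 (ENSONIT00000005626), a partner of BMAL1. PER2 (ENSONIT00000012343) was not called at 6.97 and 15.4 CPM without hormone against 19.7 and 32.1 CPM with T2 (edgeR adjusted p = 0.129).

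Genes of DNA replication and mismatch repair were at low levels in the controls, with a summed 65.9 and 157.2 CPM, and reached 635.7 and 560.1 CPM with T2. Of 19 tested 14 rose, and T2 lay above both controls in all 19. ATAD5 (ENSONIT00000002714), which unloads the replication clamp, measured 1.27 and 2.57 CPM in control and 21.2 and 17.1 CPM in T2 livers (log2 fold change 3.13, standard error 0.43, edgeR adjusted p = 0.0141). RNASEH2A (ENSONIT00000022744), which removes RNA primers, measured 2.53 and 5.88 CPM in the control livers against 34.1 and 27.5 CPM after T2 (log2 fold change 2.71, standard error 0.42, edgeR adjusted p = 0.0168), and ORC3 (ENSONIT00000004554) of the origin recognition complex 8.87 and 9.18 CPM in the controls, compared with 43.9 and 40.1 CPM in the T2 livers (log2 fold change 2.21, standard error 0.28, edgeR adjusted p = 0.0119). MKI67 (ENSONIT00000025101), the marker of cycling cells, measured 3.17 and 14.3 CPM without hormone against 38.5 and 16.7 CPM with T2 and TOP2A (ENSONIT00000025115), the topoisomerase of dividing cells, 2.53 and 22.95 CPM in control and 59.5 and 28.99 CPM in T2 livers, both without passing the threshold (edgeR adjusted p = 0.164 and 0.191). The count of rises was 5 without T2 replicate 1.

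Other genes had large changes outside the lists. HMOX1 (ENSONIT00000022796), the heme oxygenase, measured 60.2 and 389 CPM in the control livers against 3.22 and 5.29 CPM after T2 (log2 fold change -5.72, standard error 1.00, edgeR adjusted p = 0.0208). ASPG (ENSONIT00000025410), an asparaginase, measured 39.9 and 27.5 CPM in the controls, compared with 0 and 0.341 CPM in the T2 livers (178-fold lower from the summed counts, 95% counting interval 48.8 to 1482, edgeR adjusted p = 0.0101), and KLHL24 (ENSONIT00000012666), a ubiquitin ligase adaptor, 14.6 and 6.43 CPM without hormone against 0.169 and 0 CPM with T2 (97.1-fold lower from the summed counts, 95% counting interval 16.8 to 3902, edgeR adjusted p = 0.0166). ASPG and KLHL24 were nearly absent from both T2 livers, and the controls of HMOX1 were far apart. IFI27 (ENSONIT00000015440), an interferon-induced gene, measured 112 and 13.2 CPM in control and 0.678 and 0.341 CPM in T2 livers (log2 fold change -6.82, standard error 1.30, edgeR adjusted p = 0.0247), and SMIM8 (ENSONIT00000002039), a small membrane protein, 79.2 and 30.8 CPM in the control livers against 0.847 and 1.88 CPM after T2 (log2 fold change -5.28, standard error 0.67, edgeR adjusted p = 0.0119). SIGIRR (ENSONIT00000010416), a brake on interleukin-1 and toll-like receptor signals, measured 24.1 and 6.98 CPM in the controls, compared with 0.339 and 0 CPM in the T2 livers (63.6-fold lower from the summed counts, 95% counting interval 17.02 to 535, edgeR adjusted p = 0.0211, or 0.0564 without control replicate 1). CCDC134 (ENSONIT00000010548) rose, from 0.634 and 0 CPM in the controls to 7.97 and 14.5 CPM with T2 (78.8-fold higher from the summed counts, 95% counting interval 13.9 to 3136, edgeR adjusted p = 0.0208, or 0.0537 without T2 replicate 2).

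Many transcripts with a large change carry no symbol in the pairs used, among them 1182 of the 2290 calls. A count of 0 in both controls was found for 45 of the rises, and in both T2 livers for 12 of the falls. ENSONIT00000017270 stood at 27.2 and 52.2 CPM in the controls and was not counted with T2, which puts it at least 77.8-fold lower. In the T3 livers it measured 17.98 and 4.48 CPM, also below both controls. The direct comparison of T2 with T3 did not call it. ENSONIT00000012213 stood at 18.4 and 16.3 CPM in the controls and was likewise uncounted with T2, at least 34.03-fold lower. ENSONIT00000004930 was uncounted in both controls and measured 14.1 and 9.38 CPM with T2, at least 9.56-fold higher. ENSONIT00000024191 likewise went from 0 to 7.80 and 8.53 CPM, at least 6.66-fold higher.

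Markers of other cell types that a dissected fish liver can hold were also lower with T2. The liver of many fish carries exocrine pancreas, and the 12 digestive enzyme transcripts tested summed to 118962 and 39670 CPM in the controls, compared with 18460 and 21171 CPM in the T2 livers, or 8.98% and 3.37% against 2.42% and 2.47% of all counts. Control replicate 1 was about 3 times as high as control replicate 2, and both T2 livers were below both. PRSS2 (ENSONIT00000020695), a trypsinogen, measured 34377 and 13015 CPM without hormone against 5734 and 6798 CPM with T2 (log2 fold change -1.92, standard error 0.51, edgeR adjusted p = 0.0492, or 0.0506 with RLE factors, 0.0627 with library-total scaling, 0.0684 without control replicate 1, 0.175 without T2 replicate 1 and 0.102 without T2 replicate 2). Of the 12, 4 fell, and the number was 12 with edgeR's exact test, 12 with the exact test unfiltered, 11 with DESeq2, 12 with no filter on low counts, 1 with library-total scaling, 11 with all 6 livers in 1 fit, 11 with thinned counts, 2 without control replicate 1, 12 without control replicate 2, 0 without T2 replicate 1 and 1 without T2 replicate 2. All 12 were counted in every library, and their reads can be exchanged between near-identical copies.

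Leukocyte markers fell in 8 of 12 tested transcripts and summed to 906.1 and 212.6 CPM in the controls and fell to 38.3 and 36.0 CPM with T2. PRF1 (ENSONIT00000000327), the perforin of cytotoxic cells, measured 708 and 74.2 CPM in control and 0 and 4.09 CPM in T2 livers (log2 fold change -7.56, standard error 1.72, edgeR adjusted p = 0.035, or 0.0555 without control replicate 1). HLA-DRA (ENSONIT00000023249), an antigen-presenting chain, measured 8.87 and 15.98 CPM in the control livers against 1.36 and 2.22 CPM after T2 (log2 fold change -2.83, standard error 0.51, edgeR adjusted p = 0.0217, or 0.0854 without control replicate 2 and 0.0812 without T2 replicate 1). PRF1 made up most of the summed level in control replicate 1, where it was highest, while HLA-DRA was highest in control replicate 2. The number of falls was 3 without control replicate 1, 4 without T2 replicate 1 and 4 without T2 replicate 2. The red cell list summed to 6742 and 9351 CPM in the controls and 3089 and 3393 CPM with T2. All 4 tested members fell, and the falls were 2 with the exact test unfiltered, 2 with no filter on low counts, 0 with library-total scaling, 1 without control replicate 2, 0 without T2 replicate 1 and 0 without T2 replicate 2. Globin reads can be exchanged between near-identical copies. HBB (ENSONIT00000001866), a beta globin, measured 2227 and 2648 CPM in the controls, compared with 902 and 1025 CPM in the T2 livers (log2 fold change -1.34, standard error 0.28, edgeR adjusted p = 0.0283, or 0.091 with library-total scaling, 0.22 without T2 replicate 1 and 0.15 without T2 replicate 2).

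Connective tissue and smooth muscle markers fell in 8 of 14 tested members, and epithelium and bile duct markers in 9 of 13. LTBP4 (ENSONIT00000001441), a matrix protein that binds latent TGF-beta, measured 40.6 and 42.97 CPM without hormone against 9.49 and 8.36 CPM with T2 (log2 fold change -2.23, standard error 0.27, edgeR adjusted p = 0.0118), and KRT18 (ENSONIT00000024420), a keratin of simple epithelia, 32.9 and 43.3 CPM in control and 6.61 and 7.504 CPM in T2 livers (log2 fold change -2.44, standard error 0.30, edgeR adjusted p = 0.0119). MFAP4 (ENSONIT00000024036), a matrix glycoprotein, measured 1377 and 706 CPM in the control livers against 393 and 533 CPM after T2 and was not called (edgeR adjusted p = 0.0916). The connective tissue falls numbered 3 with library-total scaling, 1 without T2 replicate 1 and 2 without T2 replicate 2, and the epithelial falls 2 with library-total scaling, 5 without control replicate 1, 4 without control replicate 2, 1 without T2 replicate 1 and 3 without T2 replicate 2. The part of these cell types in the changes of the other lists was not tested. The summed pancreatic and leukocyte markers were highest in control replicate 1. Control replicate 2 was also above both T2 livers, at 39670 against 18460 and 21171 CPM for the pancreatic list. For the leukocyte list it stood at 212.6 CPM against 38.3 and 36.0 CPM with T2. A fit without control replicate 1 therefore cannot show the part of these cells in the other lists.

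**Figure D4:**
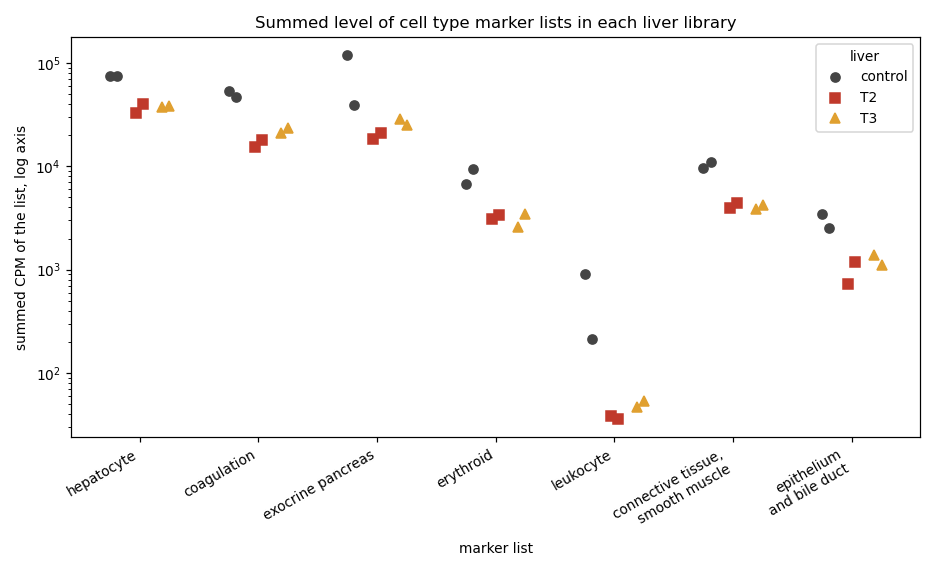
Summed CPM of 7 marker lists in each liver library on a log axis, with controls as grey circles, T2 as red squares and T3 as orange triangles. Every list was lower in both T2 livers than in both controls, and the pancreatic and leukocyte sums differed most between the 2 controls.

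The T3 livers were set against the T2 livers directly, without the controls that both hormones share. Of 11437 tested transcripts 10 passed the threshold (0.0874%), 3 of them higher with T2, and 1270 had an unadjusted p under 0.05. edgeR's exact test called 315. B2M (ENSONIT00000017834), the light chain of class I antigen-presenting molecules, measured 435 and 565 CPM in the controls, 27.3 and 26.1 CPM with T2 and 344 and 305 CPM with T3 (log2 difference of T2 from T3 -3.60, edgeR adjusted p = 0.0206). SELK (ENSONIT00000002306) measured 19.4 and 30.4 CPM with T3, near its control level given above and well above the T2 livers (log2 difference -4.70, edgeR adjusted p = 0.0464). MSRB1 (ENSONIT00000021728), another selenoprotein, measured 9.50 and 6.43 CPM in the controls, 0.678 and 1.02 CPM with T2 and 17.8 and 15.6 CPM with T3 (log2 difference -4.26, edgeR adjusted p = 0.0456). In these 3 genes the T3 livers stood above both T2 livers.

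Another transcript of BRIX1 of ribosome biogenesis (ENSONIT00000009743) had no count in any control or T2 liver and was called higher with T3 (edgeR adjusted p = 0.0456), and its reads can be exchanged with those of the BRIX1 transcript ENSONIT00000009742. No list member other than SELK and this transcript was called, which does not show that the hormones act alike on the others. RPS12 measured 1392 and 1322 CPM with T3 (log2 difference of T2 from T3 -4.09, edgeR adjusted p = 0.0702). The median log2 difference of T2 from T3 was between -0.732 for the fasting list and 0.573 for the DNA replication list. FDPS measured 366 and 250.1 CPM with T3 (log2 difference 1.02, edgeR adjusted p = 0.265), between its control and T2 levels. The T3 livers gave 342 and 296 CPM for HSPD1 (log2 difference 0.28, edgeR adjusted p = 0.563) and 99.2 and 112 CPM for UCP1 (log2 difference -0.65, edgeR adjusted p = 0.282).

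The same dose of T2 was also compared with controls in the brain, in pools of 4 fish. List medians lay between -0.878 and 0.266 in the cerebellum and between -0.757 and 0.347 in the thalamus-pituitary on the log2 scale, with the red cell list lowest in both. Of the 1646 symbol pairs 1439 came from liver clusters, which the authors called on these same livers. This choice of members favours large medians in the liver, so the list medians do not compare the tissues. The interaction, which tests the difference between the liver response and the brain response, passed the threshold for 7.39% of tested transcripts against the cerebellum and for 9.23% against the thalamus-pituitary. Among the 2290 liver calls these shares were 50.1% and 61.4%. VARS changed by 6.64 more in the liver than in the cerebellum and by 5.96 more than in the thalamus-pituitary on the log2 scale, and FDPS by 5.92 and 5.82. The liver libraries are those of the comparison above, so these differences are not a second measurement of the liver change.

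**Figure D5:**
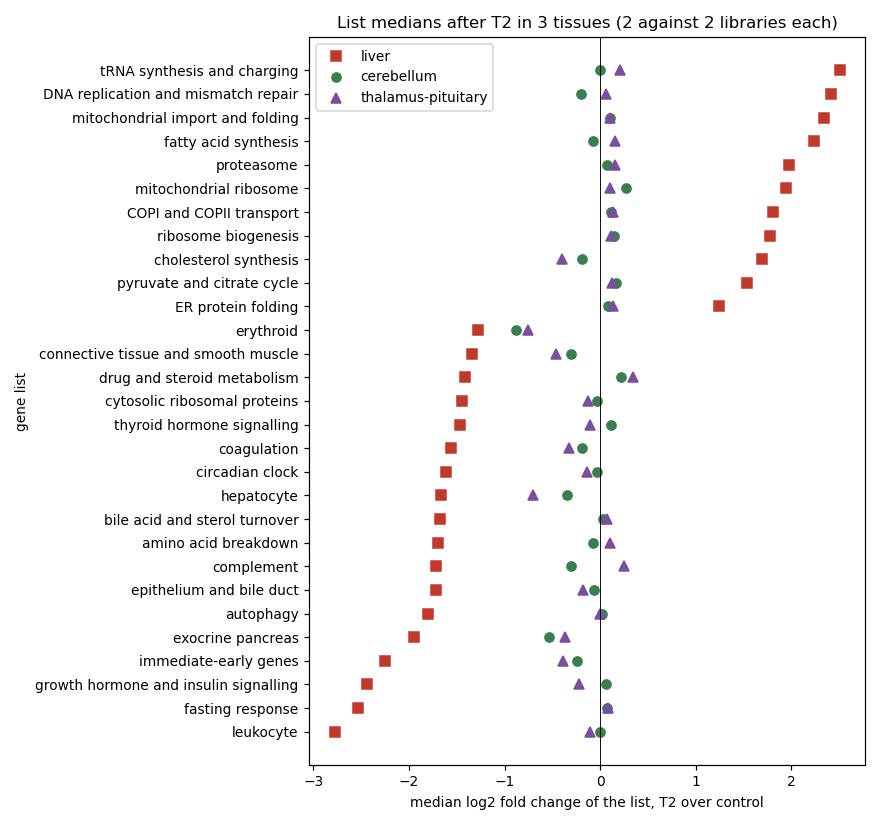
Median log2 fold change of T2 over control for 29 gene lists (vertical axis) in liver (red squares), cerebellum (green circles) and thalamus-pituitary (purple triangles). The brain medians lie between -0.878 and 0.347, while the liver medians reach from -2.78 for the leukocyte list to 2.51 for the tRNA charging list. Most list members have a symbol because the authors called them on these livers, which favours large liver medians.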

How the data were processed

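RNA of 18 tissue samples was sequenced as paired reads of TruSeq libraries on a Genome Analyzer GAIIx. After read cleaning the authors used Bowtie 1.1.2 against coding sequences from Ensembl (assembly Orenil1.0) and deposited, for each library, the effective counts of eXpress, which are estimated counts per transcript without normalization between libraries. Their tables of fold changes, log CPM values and p-values for each comparison were not used.

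Effective counts were rounded to whole numbers, filtered with filterByExpr at a count of 10 and a summed count of 15, brought to a common scale by TMM, and analysed with edgeR 4.0.16 in R 4.3.3 on the 2 control and 2 T2 libraries. Benjamini-Hochberg adjustment of the quasi-likelihood p-values ran over all tested transcripts. The standard errors given are derived values: the size of the log2 fold change divided by the square root of the test's F statistic. A deeper library holds less counting error, and the shallowest was control replicate 1. A fold against a group at 0 was computed with 3 counts in each of its libraries. Symbols came from 1646 transcript pairs in the part of the study's supplement held here, of which 207 came from brain clusters alone. None of the 42644 genes of the RefSeq table carries an Ensembl identifier, so no position or sequence is given.

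Members, gene lists and the naming rule were chosen with earlier results of these data known. First, the rule considered only called transcripts with a symbol and both T2 libraries on one side of both controls. Of these it took the 10 largest rises and falls with a mean of at least 10 CPM in the higher group. It also took the 8 with the highest mean CPM in each direction. Further members were up to 4 called members per direction and 2 others of each of 29 lists. Last came 5 genes tied to the study or to hormone transport, and 4 transcripts without a symbol. It gave 204 transcripts, 155 of them called, and the values of a few are not reported here. B2M, MSRB1 and a BRIX1 transcript were chosen after their values were seen, as calls of the T2 and T3 comparison. TIMM50 and EPRS, list members not counted in either control, and LMAN2L were also chosen after their values were seen. The test was tested on simulated data of 10674 transcripts for the liver comparison. It recovered 13.4% of 97 changes of 1.5 and 92.5% of 93 changes of 3 on the log2 scale and called 1 unchanged transcript. The simulation gave all transcripts and libraries the same spread beyond counting error (dispersion 0.109). It changed few transcripts, as many up as down, so its rates need not hold for these livers. The alternatives comprised the exact test of edgeR, filtered or unfiltered, DESeq2 1.42.0 with its size factors, no filter, RLE factors, library-total scaling, all 6 liver libraries in 1 fit, a replicate block, thinned counts, counts not rounded, and each library left out. A robust fit was added after the data were seen.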

Additional observations from a re-analysis of the deposited data

Results flagged for a closer look

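The response to T2 differed between tissues by the interaction term of edgeR's quasi-likelihood model in 1259 transcripts between liver and cerebellum and in 1651 between liver and thalamus-pituitary. Of the 20 transcripts with a symbol that the naming rule gives for the largest changes in the liver, 12 passed both interactions. The change in the liver minus that in the cerebellum, on the log2 scale, was 6.64 for VARS, 6.13 for CCDC134, 5.77 for POLR2H, 5.45 for FASTKD5, 4.26 for TBL3, 5.29 for MFSD2A, 5.92 for FDPS and 4.75 for PITRM1. Against the thalamus-pituitary the same genes gave 5.96 for VARS, 5.97 for CCDC134, 6.01 for POLR2H, 5.23 for FASTKD5, 5.14 for TBL3, 5.00 for MFSD2A, 5.82 for FDPS and 4.68 for PITRM1. Genes lower in the liver gave negative differences, at -5.29 and -9.33 for ASPG, -5.92 and -6.14 for KLHL24, -6.47 and -6.16 for RPS12, and -6.08 and -5.18 for SMIM8, the cerebellum first. These genes were named for their change in the same liver libraries, so the differences describe them and do not measure the liver change again. The liver values of CCDC134, POLR2H, FASTKD5, ASPG and KLHL24 rest on 1 or 2 counts in the lower group.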

How the results depend on the processing

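Against 1325 rises and 965 falls, scaling by the library total gave 2576 rises and 339 falls, 88.4% of calls higher with T2. The fit of all 6 liver libraries gave 1491 falls. The replicate numbers mark separate fish and do not pair them, and the replicate 1 minus replicate 2 differences of control and T2 had a correlation of -0.066 across transcripts. The fit with a replicate block called 928 rises and 597 falls. The edgeR exact test, DESeq2, RLE factors, no filter, thinned counts, unrounded counts and the robust fit stayed within 1.5 times of both main counts. With each library left out in turn the rises ranged from 437 to 1153, the falls from 182 to 865 and the share of rises from 57.1% to 70.6%, all lowest in number without T2 replicate 1. The direct comparison of T2 with T3 gave 10 calls, 315 by the exact test and 28 with library-total scaling. The interaction against the cerebellum gave 2126 calls with library-total scaling, against 1259. Of the named transcripts not called in the main test, edgeR's exact test with the same filter called 32 and DESeq2 called 28. FASN, CYP1A2 and JUN were called by both. Of the named transcripts 4 that were not called changed sign. With single libraries left out the log2 fold change ranged from -2.54 to 0.008 for MASP1, with the positive value without control replicate 1, and from -2.77 to 1.15 for RB1CC1, again positive without that library. It ranged from -1.89 to 0.442 for COL1A1 and from -3.77 to 0.5 for KRT20, positive without control replicate 2 and without T2 replicate 1, and was 0.178 and 0.068 with library-total scaling. The cause of these moves was not tested. The shallowest library, control replicate 1, held 2090510 counts, so that low transcripts of the controls were measured least precisely.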
